A study of Homo sapiens with 6 samples.

Results

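Hypoxia targets and glycolysis were examined as a set of 34 genes in SNU-398, a line of human liver cancer (hepatocellular carcinoma) cells, after knockdown of the zinc finger transcription factor SALL4. The genes were chosen by name, before any filter on their values, but with earlier results of these data known. They are 16 glycolytic enzymes, 4 genes of sugar and lactate transport and pyruvate control, and 14 non-metabolic targets of the hypoxia-inducible factors (HIF). Of the 34 genes, 31 were measured by a probe set with a single gene symbol, out of 18404 such genes in all. PGAM1, the phosphoglycerate mutase, was covered only by 4 probe sets that also list PGAM4 and was therefore not given a value. The expression of CA9 and SLC16A3 was not analysed here. Total RNA came from 3 SNU-398 cultures with an shRNA against SALL4 and 3 SNU-398 cultures with a scrambled control shRNA, all grown in the same serum-containing RPMI medium, in 5% CO2, and hybridized to Affymetrix arrays, 1 array per culture. The labels give no oxygen level, no time after the shRNA was introduced, no hairpin sequence or number of hairpins, and no rescue, so effects of lower SALL4 and other effects of the shRNA cannot be told apart. Each value is from bulk RNA, in which fewer cells of a type and less RNA per cell cannot be told apart.

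HIF is a dimer of an oxygen-labile alpha subunit and a stable beta subunit. When oxygen is plentiful, prolyl hydroxylases of the EGLN family mark the alpha subunit for ubiquitination by the VHL complex, and when oxygen is short the dimer accumulates and binds hypoxia response elements in its target genes. These targets include most glycolytic enzymes, glucose and lactate transporters and a kinase that inhibits pyruvate dehydrogenase. They also include genes of blood vessel growth, pH control, mitophagy, collagen modification and oxygen sensing itself. Liver cancer cells commonly express the glycolytic isoforms of fetal liver and of hypoxic tissue.

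The values are intensities on a linear scale with a floor of 10, and array medians lay between 47.85 and 51.69. SALL4 itself was at 121, 119 and 117 on the SALL4 shRNA arrays, against 283, 264 and 335 on the scrambled shRNA arrays, so no array went against its label. On the first principal component (37.3% of the variance) the SALL4 shRNA arrays lay between -31.0 and -14.9 and the scrambled arrays between 20.3 and 22.1. On the second (19.8%), SALL4 shRNA replicate 2 at -23.4 and scrambled replicate 3 at -19.3 stood apart from the other arrays (1.77 to 16.9), and results are also given without both. Of the hepatocyte lineage markers, 12 were measured and 6 of them were too dim to test, among them ALB (12.1 ± 0.403 in the SALL4 shRNA group and 11.2 ± 1.39 in the scrambled group, SD, n = 3 each) and AFP. None of the 6 bright enough to test passed, with log2 differences from -0.25 for APOA1 to 0.64 for KRT8 in the brightest probe set of each. The dimmer probe set of APOA1, near the floor, had the opposite sign (0.34). The dimmer one of KRT18 was at -0.74 without overlap of the groups, against -0.07 for the brighter one. KRT8, a keratin of simple epithelia, was at 46.1, 77.3 and 45.7 on the SALL4 shRNA arrays, against 22.7, 43.2 and 44.3 on the scrambled arrays, close together but without overlap (limma adjusted p 0.292). APOA2 was at 0.27 and the fetal liver proteoglycan GPC3 at -0.11, both with overlapping groups. The leukocyte marker PTPRC lay at the floor on all 6 arrays. The summed intensity of 11 markers of leukocytes, endothelium, fibroblasts and cholangiocytes ran from 435 to 490.5 on the SALL4 shRNA arrays and from 383 to 417 on the scrambled arrays, without overlap. The largest increases in mean were in the fibroblast markers COL1A1 (96.5 against 74.6 in the scrambled group), COL1A2 (77.1 against 54.3) and PDGFRB (53.8 against 41.8). KRT7 (45.7 against 59.2) and VWF (17.6 against 19.4) were lower, so the sum is not a rise of all these markers. None of the 5 of these markers that were bright enough to test passed. All arrays came from cultures of the same cell line, and the source of these marker signals was not tested.

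Of the 31 measured genes of the set 2 passed the test and 29 did not. ADM rose and P4HA1 fell, both of them non-metabolic HIF targets, and none of the 15 glycolytic enzymes tested passed the same threshold. Differences are SALL4 shRNA minus scrambled shRNA on the log2 scale, from limma fitted to 13711 genes, with Benjamini-Hochberg adjustment over all of them and a threshold of 0.05. All 31 measured genes of the set were in this fit and were bright enough in both groups, so none entered it through 1 group alone. The 2 calls are 6.45% of the 31 genes, against a background of 1.60% of all genes tested. The set was chosen with earlier results of these data known, so this share is a description and was not tested. In single directions, 0.547% of all genes tested rose and 1.06% fell. When no filter on dim genes was used, limma passed 0 of 18404 genes and therefore none of the set.

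**Figure D1:**
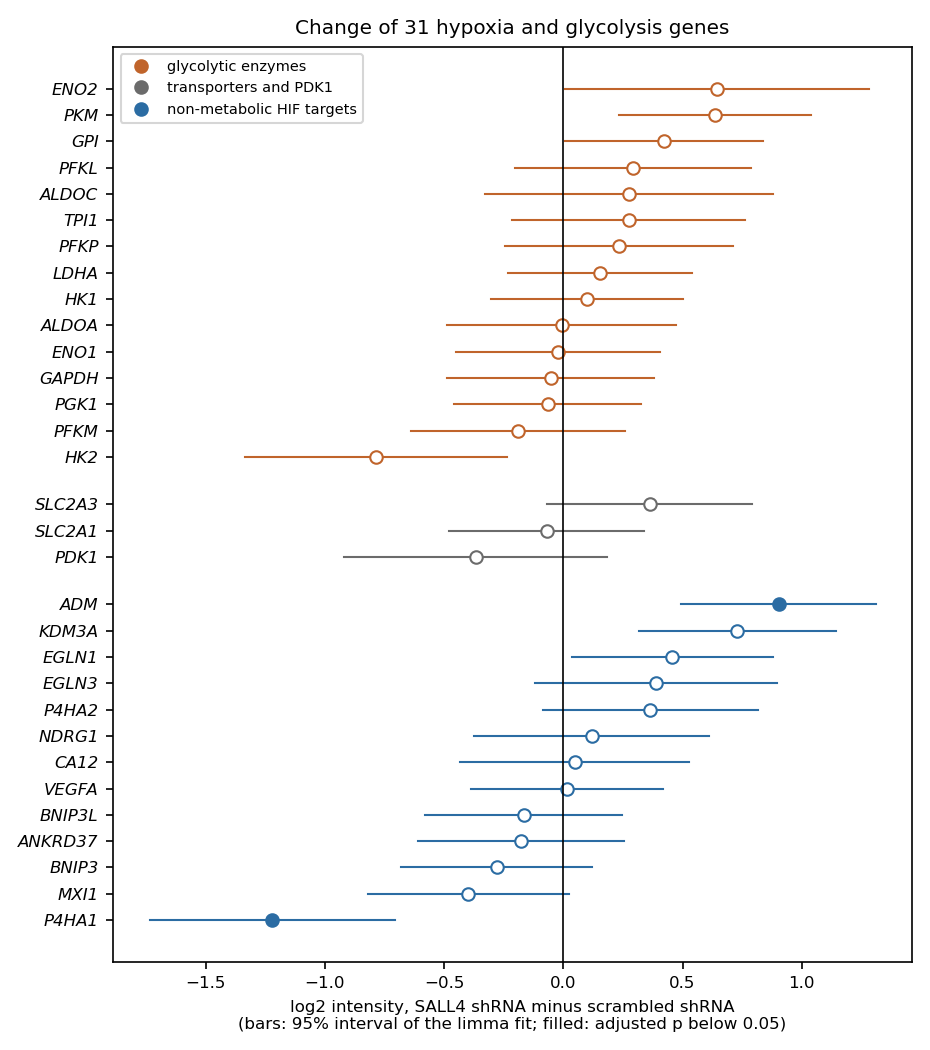
Log2 intensity difference, SALL4 shRNA minus scrambled shRNA, of the 31 measured genes, sorted within each role. Points are limma estimates from 3 arrays per group, bars are 95% intervals, and filled points have an adjusted p below 0.05. ADM at 0.90 and P4HA1 at -1.22 lie farthest from 0, and the glycolytic enzymes run from -0.79 for HK2 to 0.64 for ENO2 and PKM.

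ADM encodes the precursor of adrenomedullin, a secreted vasodilator peptide that is a classical HIF target. Its intensity was 149, 160 and 190 on the SALL4 shRNA arrays, against 85.8, 82.8 and 97.2 on the scrambled arrays. All 3 SALL4 shRNA arrays were above all 3 scrambled arrays. ADM averaged 166 ± 21.5 in the SALL4 shRNA group and 88.6 ± 7.6 in the scrambled group (SD, n = 3 each), a 1.87-fold difference (log2 0.90 ± 0.19, SE), and its adjusted p in limma was 0.0358. An exact permutation test, two-sided, gave 0.1, the lowest p possible with 3 arrays per group. The rise lost the limma call when any 1 array was left out (adjusted p from 0.0626 to 0.122) and when the 2 arrays that stood apart were left out together (0.113), while its size was 0.80 or more on the log2 scale in these fits.

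P4HA1 encodes the catalytic subunit of collagen prolyl 4-hydroxylase, the enzyme that hydroxylates prolines of procollagen chains in the endoplasmic reticulum. It was at 241, 233 and 135 on the SALL4 shRNA arrays, against 434, 509 and 434 on the scrambled arrays. The groups did not overlap, and SALL4 shRNA replicate 3 was the lowest of all arrays. P4HA1 averaged 203 ± 59.1 in the SALL4 shRNA group and 459 ± 43.2 in the scrambled group (SD, n = 3 each), so that 42.9% of the scrambled level was left (log2 -1.22 ± 0.24, SE; limma adjusted p 0.0291; exact permutation p 0.1). Without SALL4 shRNA replicate 3 the log2 change was -0.95 and the adjusted p 0.0667. When single arrays were left out, P4HA1 passed in 1 of 6 fits, that without SALL4 shRNA replicate 1 (0.0416). The other fits ran up to 0.107, and without the 2 arrays that stood apart it was at 0.0933.

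**Figure D2:**
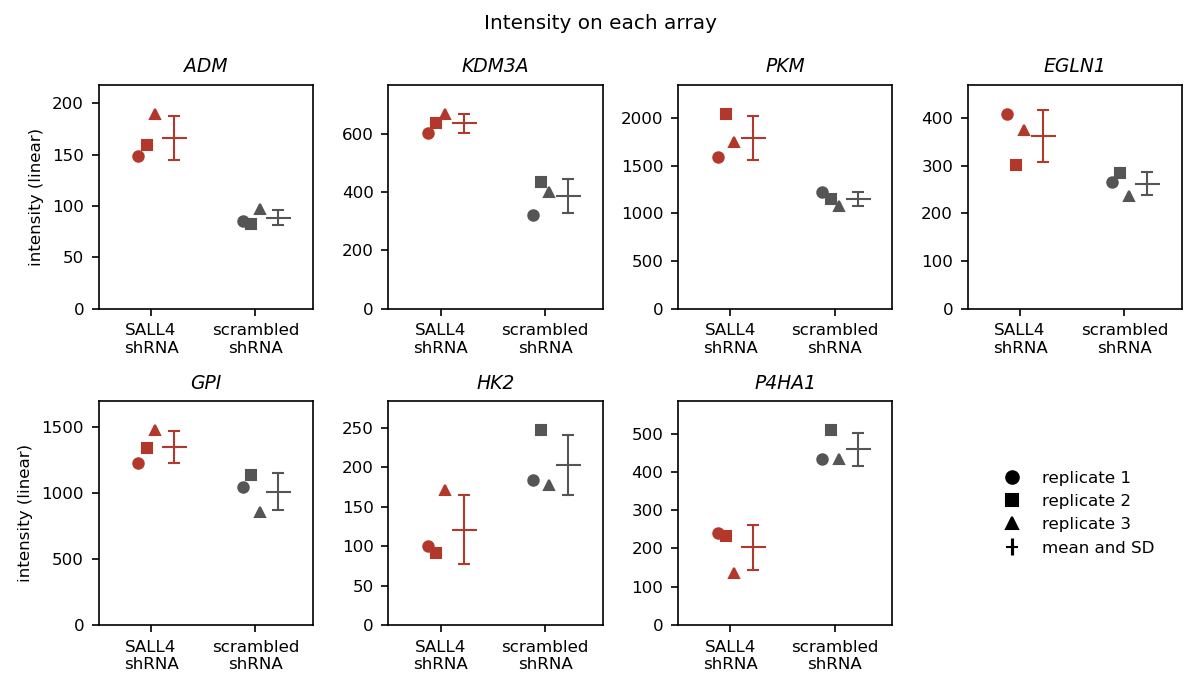
Linear intensity on each array (vertical axis, from 0) of the 7 genes of the set that passed or that had groups without overlap and a log2 change of at least 0.4 in size. SALL4 shRNA arrays are on the left and scrambled shRNA arrays on the right, marker shapes give the replicate, and bars are the mean and SD of 3 arrays. ADM, KDM3A, PKM, EGLN1 and GPI are higher on every SALL4 shRNA array, and HK2 and P4HA1 are lower on each.

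ADM and P4HA1 are both known HIF targets, and the sequence just before the transcription start of each is shown to compare their hypoxia response element cores, the short motif that HIF contacts. The sequences are the 250 bases before the RefSeq start in GRCh38.p14, written along the gene's own strand. Capitals mark matches to ACGTG or GCGTG on either strand (read as CACGT or CACGC on the other), with overlapping matches joined into 1 core. The ADM window is chr11:10304823-10305072 on the plus strand, and the P4HA1 window is chr10:73096867-73097116 on the minus strand. BNIP3 (chr10:131981924-131982173, minus strand) and ALDOC (chr17:28576896-28577145, minus strand) are added because they hold the most cores among the genes of the set with a single annotated start.
ADM: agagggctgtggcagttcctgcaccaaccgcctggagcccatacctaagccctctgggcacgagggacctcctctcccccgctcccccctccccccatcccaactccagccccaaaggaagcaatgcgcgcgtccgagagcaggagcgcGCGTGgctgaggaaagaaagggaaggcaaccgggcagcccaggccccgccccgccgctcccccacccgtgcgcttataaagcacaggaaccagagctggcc
P4HA1: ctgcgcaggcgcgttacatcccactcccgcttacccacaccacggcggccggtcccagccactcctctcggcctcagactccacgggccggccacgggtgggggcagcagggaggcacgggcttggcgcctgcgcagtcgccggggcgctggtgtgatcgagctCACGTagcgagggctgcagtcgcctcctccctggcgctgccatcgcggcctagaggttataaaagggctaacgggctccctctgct
BNIP3: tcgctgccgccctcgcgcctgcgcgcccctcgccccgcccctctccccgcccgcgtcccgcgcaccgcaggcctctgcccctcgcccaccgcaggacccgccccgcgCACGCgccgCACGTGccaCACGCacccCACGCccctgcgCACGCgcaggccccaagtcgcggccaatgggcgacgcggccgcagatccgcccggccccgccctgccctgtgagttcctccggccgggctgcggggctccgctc
ALDOC: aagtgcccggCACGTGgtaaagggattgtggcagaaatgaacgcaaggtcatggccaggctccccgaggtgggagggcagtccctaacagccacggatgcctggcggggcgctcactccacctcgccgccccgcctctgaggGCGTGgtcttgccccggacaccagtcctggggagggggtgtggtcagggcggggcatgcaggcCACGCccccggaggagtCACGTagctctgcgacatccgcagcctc

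ADM and P4HA1, which changed in opposite directions, each held 1 core, from 101 to 97 bases before the start in ADM and from 86 to 82 bases before it in P4HA1. BNIP3 held 5 cores and ALDOC 4, and neither passed the test (log2 -0.28 and 0.28). Windows were found for 30 of the 34 genes, 58 windows in all because some genes have several starts. None was found for VEGFA, NDRG1, BNIP3L and SLC2A3. The windows include those of PGAM1, CA9 and SLC16A3, which have no expression value here. A core was present in 34 of the 58 windows (58.6%), against 43.2% of all 35116 RefSeq windows, and the median GC content was 68.2% in the 58 windows and 58% over all windows. By role, 11 of 14 windows of non-metabolic targets (78.6%), 19 of 36 windows of glycolytic enzymes (52.8%) and 4 of 8 windows of transporters and PDK1 held a core. These are counts of windows, not genes, and HK1 and PFKM have 7 windows each, most of them without a core. Counted by gene, only PGAM1 and PKM among the glycolytic enzymes had no core in any window. The same held for EGLN3 and P4HA2 among the non-metabolic targets, and for SLC2A1 in the third role. The window shares therefore do not compare the roles gene by gene. A match to these letters is a description and does not show that HIF binds there.

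**Figure D3:**
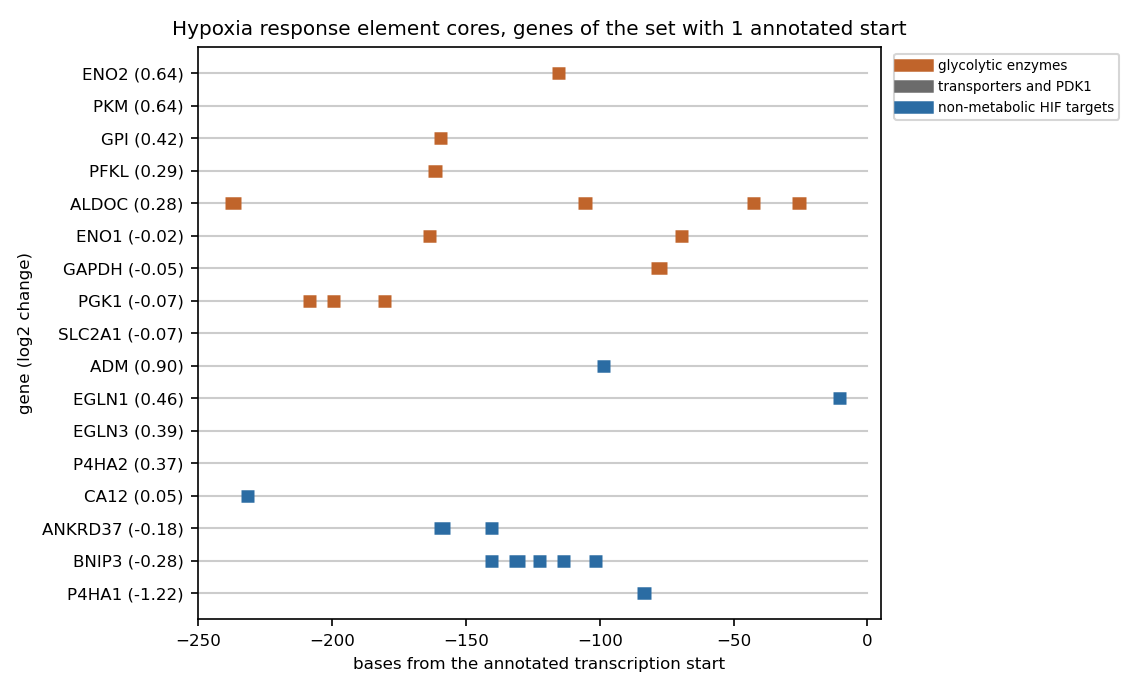
Positions of hypoxia response element cores (coloured blocks) in the 250 bases before the annotated start, for the 17 measured genes with 1 annotated start. The horizontal axis gives bases from the start, the labels give each gene's log2 change (SALL4 shRNA minus scrambled shRNA), and colours give the role. BNIP3 has a run of 5 cores, ADM and P4HA1 have 1 each, and PKM, SLC2A1, EGLN3 and P4HA2 have none in this window.

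Among the 13 non-metabolic HIF targets measured, the median log2 change was 0.05, against 0.02 over all genes tested, with 8 positive and 5 negative values. The median had no stable sign: it was -0.08 without SALL4 shRNA replicate 1 and 0.18 without SALL4 shRNA replicate 3. Single genes spread more widely than the median shows, with a median absolute log2 change of 0.37, against 0.22 over all genes tested. In 5 of the 13 genes the groups did not overlap (38.5%), against a background of 22.4% of all genes tested. These were ADM, KDM3A and EGLN1 on the higher side and P4HA1 and BNIP3 on the lower side.

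KDM3A, a histone demethylase of the jumonji family, was at 601, 635 and 668 on the SALL4 shRNA arrays, against 320, 435 and 401 on the scrambled arrays. Every SALL4 shRNA array was above every scrambled array, by 1.66-fold on average (log2 0.73 ± 0.19, SE), but the gene missed the threshold with a limma adjusted p of 0.076. It passed, at 0.0294, when limma's trend and robust options were used.

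The oxygen sensor EGLN1, the main prolyl hydroxylase that marks HIF alpha subunits for degradation, was at 410, 302 and 375 on the SALL4 shRNA arrays, against 266, 285 and 236 on the scrambled arrays. The groups lay close together without overlap, and the log2 difference of 0.46 ± 0.19 (SE) did not pass (limma adjusted p 0.258). EGLN3, its relative with strong induction in hypoxia, was at 0.39 ± 0.23 (SE) with overlapping groups.

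P4HA2, the second catalytic subunit of collagen prolyl 4-hydroxylase, had the opposite sign to P4HA1. It was at 240, 201 and 204 on the SALL4 shRNA arrays, against 138, 157 and 212 on the scrambled arrays (log2 0.37 ± 0.21, SE; limma adjusted p 0.404). Scrambled replicate 3 reached into the SALL4 shRNA range, so P4HA2 itself was not shown to change, and the difference between the 2 subunit genes was not tested.

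The mitophagy receptor gene BNIP3 was slightly lower, at 502, 536 and 425 on the SALL4 shRNA arrays, against 572, 565 and 632 on the scrambled arrays (log2 -0.28 ± 0.18, SE; limma adjusted p 0.474). Its relative BNIP3L was at -0.17 ± 0.19 with overlapping groups. MXI1, an antagonist of MYC, was at 139, 140 and 171 on the SALL4 shRNA arrays, against 210, 167 and 216 on the scrambled arrays (log2 -0.40 ± 0.19, adjusted p 0.324), and scrambled replicate 2 lay inside the SALL4 shRNA range. VEGFA, the main growth factor of blood vessels and a standard readout of HIF, was at 292, 228 and 249 on the SALL4 shRNA arrays, against 239, 253 and 264 on the scrambled arrays. Its log2 difference was 0.02, and the 95% interval ran from -0.39 to 0.42. The membrane carbonic anhydrase gene CA12 (0.05), the stress-responsive gene NDRG1 (0.12) and the ankyrin repeat gene ANKRD37 (-0.18) also had overlapping groups, and adjusted p values between 0.705 and 0.941.

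**Figure D4:**
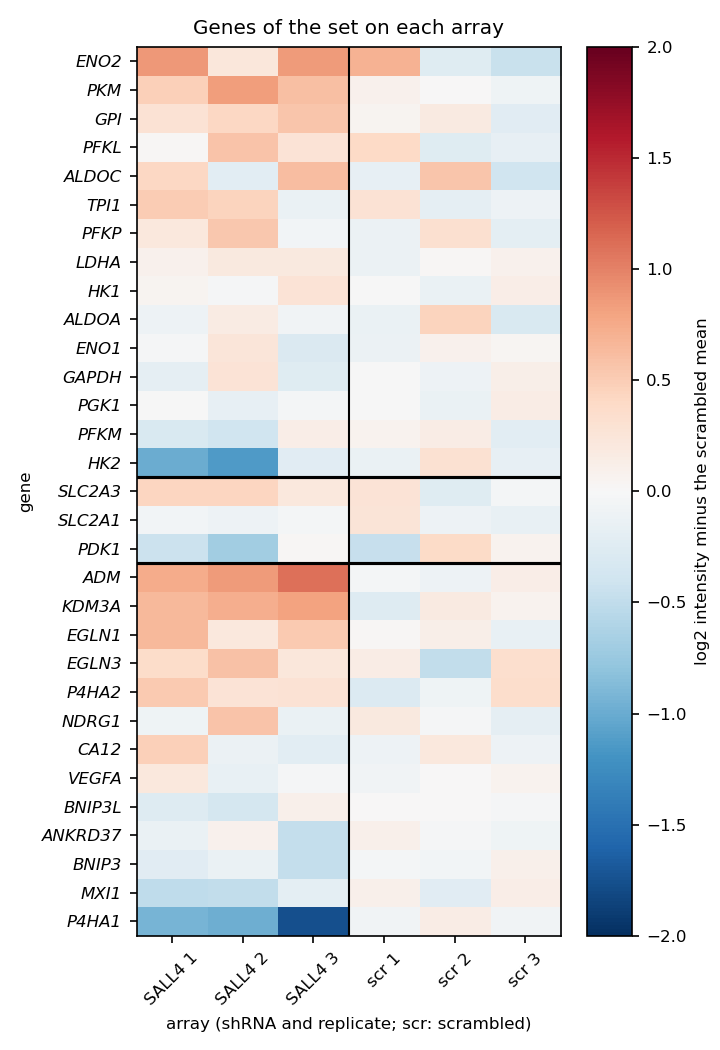
Log2 intensity of each measured gene of the set on each array, minus its mean over the scrambled arrays. SALL4 shRNA arrays are the 3 columns on the left and scrambled shRNA arrays (scr) the 3 on the right, and horizontal lines part the glycolytic enzymes, the transporters with PDK1, and the non-metabolic HIF targets. ADM runs from 0.75 to 1.10 and P4HA1 from -1.76 to -0.93 on the SALL4 shRNA arrays, while GAPDH runs from -0.25 to 0.27 on them.

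No glycolytic enzyme passed the test. Of 15 enzymes, 0 passed limma over all genes, 9 values were positive and 6 negative, and the median log2 change was 0.15. Their median absolute change was 0.23, against 0.22 over all genes tested, and the groups did not overlap for 3 of the 15 (20%), against the background of 22.4%. A log2 change of at least 0.5 in size was found for 3 of the 15 (20%), against 14.6% of all genes tested. At an unadjusted limma p under 0.05 there were 4 of the 15, HK2, PKM, GPI and ENO2, a larger share than the 16.9% of all genes tested. Relative to the scrambled mean of each gene, the median over the 15 enzymes was 0.06, 0.22 and 0.13 on SALL4 shRNA replicates 1, 2 and 3, against -0.01, 0.02 and -0.17 on scrambled replicates 1, 2 and 3.

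At the entry of the pathway, HK2, the hexokinase isoform that fetal and cancer cells use to trap glucose, had the lowest log2 difference of the enzymes. Its intensity was 100.5, 91.2 and 171 on the SALL4 shRNA arrays, against 183, 247 and 178 on the scrambled arrays. SALL4 shRNA replicate 3 lay just under the lowest scrambled array. The log2 difference was -0.79 ± 0.25 (SE; limma adjusted p 0.133), and without SALL4 shRNA replicate 3 it was -1.06 (adjusted p 0.0628). HK1, the widely expressed hexokinase, was at 177, 167 and 206, against 170, 156 and 186 on the scrambled arrays, a log2 difference of 0.10 whose 95% interval ran from -0.30 to 0.50.

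GPI, which turns glucose phosphate into fructose phosphate, was at 1228, 1336 and 1472 on the SALL4 shRNA arrays, against 1043, 1132 and 852 on the scrambled arrays. The groups did not overlap, and the difference of 0.42 ± 0.19 (SE) on the log2 scale did not pass (limma adjusted p 0.291). The phosphofructokinase genes, which encode the committing step, were at 0.29 for the liver isoform PFKL, -0.19 for the muscle isoform PFKM and 0.23 for the platelet isoform PFKP, each with overlapping groups. The aldolase genes ALDOA (-0.01) and ALDOC (0.28) and the triose phosphate isomerase gene TPI1 (0.27) also overlapped. The value of ALDOC ran from 0.08 without scrambled replicate 3 to 0.55 without scrambled replicate 2. TPI1 had 2 probe sets, and its dimmer one was at 0.55.

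At the end of the pathway is PKM, a pyruvate kinase gene with a splice form typical of fetal and tumour cells. PKM was at 1593, 2047 and 1747 on the SALL4 shRNA arrays, against 1222, 1150 and 1078 on the scrambled arrays. All SALL4 shRNA arrays were above all scrambled arrays, by 1.56-fold on average (log2 0.64 ± 0.19, SE), yet the limma adjusted p was 0.101. It was 0.023 with trend and robust settings, and 0.338 without the 2 arrays that stood apart. The array value does not separate the splice forms of PKM. ENO2, the neuronal enolase, was at 175, 112 and 172 on the SALL4 shRNA arrays, against 155, 81.3 and 70.4 on the scrambled arrays, and scrambled replicate 1 lay above SALL4 shRNA replicate 2. Its log2 difference was 0.64 ± 0.29 (SE; limma adjusted p 0.291), and it was 0.99 without scrambled replicate 1.

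The remaining enzymes of the lower pathway were close to 0. GAPDH was at 3548, 4870 and 3403 on the SALL4 shRNA arrays, against 3995, 3761 and 4367 on the scrambled arrays. LDHA, which reduces pyruvate to lactate, was at 2232, 2412 and 2417, against 1955, 2144 and 2252 on the scrambled arrays. Their log2 differences were -0.05 and 0.15, with 95% intervals from -0.49 to 0.38 and from -0.23 to 0.54. PGK1 (-0.07) and ENO1 (-0.02) had overlapping groups too. GAPDH, PGK1, ENO1, LDHA, TPI1 and PKM have processed pseudogenes, whose transcripts these probes might also detect, and their values are uncertain to that extent.

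The transporters and PDK1 did not pass either. SLC2A1, the basal glucose transporter and a standard HIF target, was at 99.7, 96.4 and 101 on the SALL4 shRNA arrays, against 124, 96.2 and 93.7 on the scrambled arrays (log2 -0.07, 95% interval -0.48 to 0.34). SLC2A3, the high-affinity glucose transporter, was at 1029, 1029 and 884 on the SALL4 shRNA arrays, against 923, 647 and 739 on the scrambled arrays (0.36 ± 0.20, SE; limma adjusted p 0.383). The groups of SLC2A3 overlapped through scrambled replicate 1, and its near-identical relative SLC2A14 can share signal with it. PDK1, the kinase that shuts off pyruvate dehydrogenase, was at 114, 95.6 and 157 on the SALL4 shRNA arrays, against 112, 201 and 162 on the scrambled arrays (-0.37 ± 0.25, adjusted p 0.5).

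Set side by side, the 15 glycolytic enzymes had 0 calls and a median log2 change of 0.15, and the 13 non-metabolic HIF targets had 2 calls in opposite directions and a median of 0.05. A log2 change of at least 0.5 in size was found for 3 of the 15 (20%) and 3 of the 13 (23.1%). An unadjusted limma p under 0.05 was found for 4 of the 15 and 4 of the 13. Groups did not overlap for 3 of the 15 (20%) and 5 of the 13 (38.5%). The difference between the roles was not tested, since their genes are not replicates of a condition. Over the whole set 8 of 31 genes had groups without overlap (25.8%), near the 22.4% of all genes tested, and 18 values were positive and 13 negative.

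Among the HIF subunits and other genes of oxygen sensing no change was called. Of 15 such genes 0 passed in limma, and 1 had an unadjusted p under 0.05, a smaller share than the 16.9% of all genes tested. The median log2 change was 0.10, with 12 values positive and 3 negative, and 3 genes had groups without overlap (20%), against 22.4% of all genes tested. HIF1A, the main oxygen-labile subunit, was at 871, 869 and 899 on the SALL4 shRNA arrays, against 723, 740 and 599 on the scrambled arrays. The groups did not overlap, and the difference of 0.36 ± 0.18 (SE) did not pass (limma adjusted p 0.337). Its partner ARNT was at 0.26 and VHL, the substrate receptor of the ubiquitin ligase, at 0.46, also without overlap and without passing. ELOC, an adaptor of that ligase, had probe sets of opposite sign, 0.05 for the brighter and -0.12 for the dimmer one. The other alpha subunit genes, EPAS1 (-0.07) and HIF3A (-0.22), were on the negative side with overlapping groups. HIF is regulated mainly through the stability of its protein, which arrays do not measure.

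Of 39 further HIF targets measured, 36 were bright enough to test, and 1 rose, 2 fell and 33 did not pass. The 3 calls are 8.33% of the 36, against the background of 1.60%. Groups did not overlap for 9 of the 36 (25%), near the 22.4% of all genes tested. This list was also chosen with earlier results of these data known, so its share is only a description. ERO1A, the oxidase that renews disulfide bond formation in the endoplasmic reticulum, was at 292, 261 and 364 on the SALL4 shRNA arrays, against 717, 718 and 685 on the scrambled arrays. The groups lay far apart, and ERO1A fell by 1.22 on the log2 scale (SE 0.19, limma adjusted p 0.0138). It kept the call in 4 of the 6 fits that left out 1 array, and lost it without scrambled replicate 1 or 2 (adjusted p up to 0.0579). The membrane protein gene TMEM45A was at 43.5, 44.1 and 59.6 on the SALL4 shRNA arrays, against 115, 110 and 86.8 on the scrambled arrays, and fell by 1.08 (SE 0.21, adjusted p 0.0283, passing in 2 of the 6 fits). DDIT4, an inhibitor of the growth regulator mTOR, was at 149, 109 and 138 on the SALL4 shRNA arrays, against 76.8, 62.5 and 35.9 on the scrambled arrays. It rose by 1.23 (SE 0.27, adjusted p 0.0446) and passed in none of the 6 fits. Without the 2 arrays that stood apart, the adjusted p of ERO1A, TMEM45A and DDIT4 was 0.0861, 0.0924 and 0.0987.

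The partners of P4HA1 in collagen modification did not pass. Of 11 tested genes of collagen prolyl and lysyl hydroxylation, 0 passed in limma and the median log2 change was 0.03. P4HB, the disulfide isomerase that is the other subunit of the same enzyme, was at 498, 658 and 473 on the SALL4 shRNA arrays, against 805, 755 and 798 on the scrambled arrays. It was lower on every SALL4 shRNA array without passing (log2 -0.55 ± 0.19, SE; limma adjusted p 0.172), and its other probe set gave -0.48. P3H4, a component of the lysyl hydroxylation complex, was at -0.45 and the lysyl hydroxylase gene PLOD3 at 0.33, both with overlapping groups. Among the markers of other cell types, the collagen genes COL1A1 and COL1A2 were at 0.37 and 0.50 and did not pass, with adjusted p values of 0.380 and 0.235. Of 6 genes of adrenomedullin signalling 0 passed, with values from -0.14 for MME, a peptidase that degrades it, to 0.31 for the receptor-modifying gene RAMP1, and RAMP2 at 0.16.

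Genes around glycolysis gave no calls. Of 12 tested isoforms and bypass enzymes 0 passed in limma, with 3 at an unadjusted p under 0.05, all lower. Their share is larger than the 16.9% of all genes tested in either direction. The 3 genes were BPGM, the erythroid-enriched bisphosphoglycerate mutase (-0.88), the muscle enolase ENO3 (-0.58) and the ADP-dependent glucokinase gene ADPGK (-0.57). PFKFB2, which makes and removes an activator of phosphofructokinase, was at 0.53 with overlapping groups (adjusted p 0.324). LDHB was too dim to test. Of 5 tested genes of gluconeogenesis 0 passed. G6PC3, the widely expressed glucose phosphatase, was at 108, 171 and 105 on the SALL4 shRNA arrays, against 197, 245 and 234 on the scrambled arrays, lower on every SALL4 shRNA array without passing (-0.85 ± 0.22, SE; limma adjusted p 0.078), while PC was at 0.22 and FBP1 at 0.15.

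The list of pyruvate entry into mitochondria, which also holds pyruvate dehydrogenase and kinases that inhibit it, had a median of 0.21. Of its 12 tested genes 0 passed in limma and 10 values were positive, against 52% positive over all genes tested. PDHA1, the catalytic subunit of pyruvate dehydrogenase, was at 356, 349 and 324 on the SALL4 shRNA arrays, against 210, 214 and 286 on the scrambled arrays. Its log2 difference was 0.55 ± 0.19 (SE; limma adjusted p 0.168). The other subunits DLD (0.51) and DLAT (0.39) were also higher on every SALL4 shRNA array without passing, so that 3 of the 12 had groups without overlap (25%), against 22.4% of all genes tested. PDHB was at -0.13, and the kinase genes PDK2 and PDK3 were at -0.33 and 0.33. The pentose phosphate pathway had a median of -0.20, with 3 of 8 values positive and 0 passing, and TALDO1 (-0.45), RPE (-0.41) and PGLS (-0.37) were its largest differences.

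**Figure D5:**
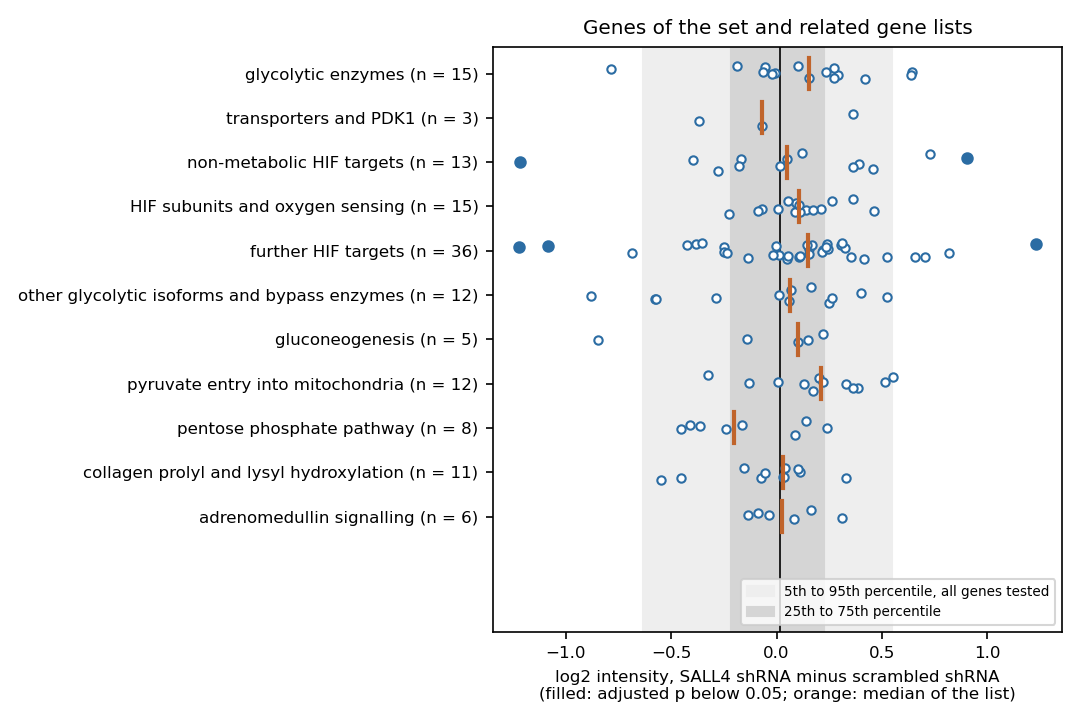
Log2 intensity difference, SALL4 shRNA minus scrambled shRNA, of each tested gene of the 3 roles and of 8 related lists. Filled points have a limma adjusted p below 0.05, orange bars are list medians, and grey bands hold the middle and the outer range of all 13711 genes tested. The list medians run from -0.20 for the pentose phosphate pathway to 0.21 for pyruvate entry, and the 5 filled points belong to HIF targets. The set and the lists were chosen with earlier results of these data known.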

How the data were processed

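The deposited intensity values, linear and not log-transformed, cover 32319 probe sets on 6 arrays. RMA was used, per the submitters' processing notes; the steps leading to linear values with a floor of 10 are unstated in the labels used. The floor holds 15.5% to 16.9% of an array's values and understates changes of dim genes. Gene names came from GEO's platform annotation, with symbols updated by Entrez identifier (19128 of the 19158 probe sets with 1 symbol), and the brightest probe set over all arrays stood for each gene. Log2 values of genes with a mean of at least 5 in at least 1 group entered lmFit and eBayes (limma 3.58.1, R 4.3.3; two-sided, Benjamini-Hochberg). The procedure was tested on simulated data. The labels call the arrays biological replicates. The number of arrays limits the precision. Full values are given for genes of the set that passed, or that had groups without overlap and a log2 change of at least 0.4 in size; BNIP3, MXI1, VEGFA, HK1, ENO2, GAPDH, LDHA, P4HA2 and the transporters with PDK1 were added after their values were seen. From the other lists, genes that passed or up to 3 with the largest differences are named, as are genes whose probe sets differ in sign. PDHB, PDK2, PDK3, PFKFB2, EPAS1, HIF3A, LDHB, GPC3, KRT18, ALB, AFP, PTPRC, VWF and PDGFRB were also added after their values were seen. So was the mention of COL1A1 and COL1A2 beside the partners of P4HA1. The set and the lists were chosen with earlier results of these data known. Promoter sequences are RefSeq's (GRCh38.p14). The alternatives tried were other filters, variance settings, probe set summaries and scalings, the replicate number as a block, and leaving out arrays.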

Additional observations from a re-analysis of the deposited data

How the results depend on the processing

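The count of 220 genes that passed, with 2 of the set, became 0 and 0 with no filter on dim genes, 500 and 4 with trend and robust settings, 41 and 0 with the replicate number as a block, and 15 and 0 without SALL4 shRNA replicate 2 and scrambled replicate 3 together. Without any 1 array it ran from 39 to 103, with 0 to 1 of the set; fewer arrays leave fewer degrees of freedom. Filtering on the mean of all arrays (220 and 2), averaging probe sets (224 and 2), quantile normalization (242 and 2) and median centring (240 and 2) kept both counts within 1.5 times. With trend and robust settings KDM3A and PKM passed beside ADM and P4HA1. Deviations of same-numbered arrays from their group means correlated at 0.003, -0.083 and -0.039, and those of other pairs at -0.066 to 0.094. Centring on groups of 3 ties these values to each other, so they cannot settle whether replicate numbers pair the arrays. With the replicate number as a block, the limma adjusted p was 0.0741 for ADM and 0.0562 for P4HA1. In the fit without a filter the adjusted p was 0.106 for ADM, 0.144 for P4HA1 and 0.0946 for SALL4. The median of the non-metabolic HIF targets ran from -0.08 to 0.18 without any 1 array, that of the glycolytic enzymes from 0.10 to 0.17 and that of the transporters and PDK1 from -0.14 to 0.06. Small differences changed sign. With median centring ALDOA was at 0.0387 and ENO1 at 0.0230, and without both arrays that stood apart PFKP was at -0.0194, PGK1 at 0.0541 and NDRG1 at -0.20. Without any 1 array the ranges were -0.16 to 0.21 for ALDOA, -0.22 to 0.0435 for GAPDH, -0.16 to 0.11 for ENO1, -0.13 to 0.00698 for PGK1, -0.08 to 0.10 for VEGFA, -0.16 to 0.18 for CA12, -0.11 to 0.24 for NDRG1 and -0.14 to 0.0584 for SLC2A1. The causes of these changes were not tested.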
